A study of Saccharomyces cerevisiae with 12 samples.

Results

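The 10 genes described here encode steps by which budding yeast makes, recycles and imports the precursors of NAD+. The rule that picked them names functions and uses no measured value, although earlier results of these data were known when it was set. They are 10 of 6607 identifiers in the deposited table. BNA2 (YJR078W), BNA4 (YBL098W), BNA5 (YLR231C), BNA1 (YJR025C) and BNA6 (YFR047C) belong to the de novo route from tryptophan. TNA1 (YGR260W) encodes the high-affinity nicotinic acid permease, PNC1 (YGL037C) the nicotinamidase and NPT1 (YOR209C) the nicotinate phosphoribosyltransferase of the salvage route. NMA1 (YLR328W) and QNS1 (YHR074W) act on the steps that both routes share. All 10 genes passed the filter on low values, a mean of at least 10 normalized counts over the 12 libraries, as did 5490 genes in all.

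The de novo route opens the indole ring of tryptophan and carries it through kynurenine to quinolinic acid, which BNA6 converts to nicotinic acid mononucleotide. The salvage route reaches the same mononucleotide from nicotinamide, which PNC1 deamidates, and from nicotinic acid, which TNA1 imports and NPT1 joins to a phosphoribosyl group. Adenylylation by NMA1 or its paralog NMA2 and amidation by QNS1 then give NAD+, the molecule that can also stand at the 5′ end of an RNA when transcription starts with it. In yeast the BNA genes are known to be repressed by the NAD+-dependent deacetylase Hst1 together with Sum1, and PNC1 is known to be induced by stress.

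The series asked which RNAs of the haploid strain BY4742 carry NAD+ at the 5′ end. BY4742 is of mating type alpha and has deletions in HIS3, LEU2, LYS2 and URA3, which every group shared. The 4 groups of 3 libraries were ADPRC-treated and mock-treated RNA from cells in minimal medium, and ADPRC-treated and mock-treated RNA from cells in the rich medium YEPD, all harvested in mid-log growth. ADPRC, an ADP-ribosylcyclase, swaps the nicotinamide of an NAD cap for an alkyne, to which biotin was clicked before capture on streptavidin; mock RNA went through the same steps without the enzyme. Minimal medium was yeast nitrogen base with dextrose and the full complement of amino acids, and YEPD held dextrose too. Total RNA was used without removal of ribosomal RNA and without fragmentation, so captured RNA entered the libraries at its native length. The column of 1 YEPD ADPRC library carries no replicate number and is called unnumbered. Nothing in the labels says that replicates came from separate cultures, and the spread behind each p-value may therefore be technical.

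Values are normalized counts, the read count of a gene divided by a factor for its library. Libraries held 3246900 to 13958188 recovered reads. Frames within the ribosomal DNA took 30.9 to 33.2% of reads in minimal ADPRC, 50.7 to 54.7% in minimal mock, 64.8 to 79.5% in ADPRC libraries from YEPD and 78.7 to 80.9% in their mock counterparts. Those on the Watson strand alone took at most 0.0438% in minimal libraries and at least 51.2% in YEPD libraries, so that growth medium and a difference in library preparation or counting cannot be told apart. Replicate 2 of YEPD ADPRC stood apart from its group, at 36.9 on the second principal component, against 3.36 for the unnumbered library and -0.53 for replicate 3. On that component minimal ADPRC libraries lay at 11.3 to 17.0 and mock libraries at -18.5 to -8.43, so replicate 2 lay away from mock. Ribosomal DNA frames took 64.8% of its reads, 78.3% in the unnumbered library and 79.5% in replicate 3. The last 2 values are near those of YEPD mock. Which YEPD ADPRC libraries better reflect capture was not tested. Results that replicate 2 changes are given with and without it. Of the deleted genes, LEU2, LYS2 and URA3 had 0 reads in all 12 libraries, and HIS3, whose standard deletion allele keeps part of the gene, had 50 to 327 reads. The alpha-specific genes were expressed, and of the 6 a-specific genes MFA1, MFA2 and AGA2 had at most 7 reads, STE2 and BAR1 3 to 29 and STE6 20 to 82. In bulk libraries, fewer cells with an RNA and less of it per cell cannot be told apart.

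Per length, the genes spanned a wide range, and the ends of their order held in every library while the middle did not. Per kb, PNC1 was the highest of the 10 and BNA2 the lowest in all 12 libraries, with BNA4 next to last. BNA6 ranked from 2 to 7 and NMA1 from 3 to 7. Since RNA was not fragmented, counts need not scale with length, and the order depends on the division by it. Without that division, NPT1 (542 to 686 normalized counts) exceeded PNC1 (498 to 523) in YEPD mock libraries. BNA1 then had 65.1 to 71.3 and BNA5 155 to 197 in minimal mock libraries. In minimal mock libraries, levels in normalized counts per kb of coding length were 1054 ± 68.9 for PNC1, 446 ± 30.7 for NPT1, 301 ± 25.9 for TNA1 and 246 ± 11.7 for QNS1 (SD, n = 3). These 4 levels were separated by more than their spreads. BNA6 with 186 ± 32.0, NMA1 with 178 ± 27.7, BNA1 with 129 ± 6.05 and BNA5 with 128 ± 15.4 followed (SD, n = 3), and neither the first pair nor the second pair of these differed beyond its spread. BNA4 had 31.7 ± 4.83 and BNA2 8.85 ± 3.30 (SD, n = 3), which put BNA2 at the 9.38th percentile of 5919 genes with a known length. In YEPD mock libraries PNC1 had 780 ± 20.0, NPT1 463 ± 59.8, TNA1 231 ± 18.1, NMA1 222 ± 8.68 and QNS1 202 ± 6.32 (SD, n = 3), with TNA1 and NMA1 not separated. BNA6 with 135 ± 16.4, BNA1 with 123 ± 13.1, BNA5 with 85.8 ± 14.2, BNA4 with 46.8 ± 5.26 and BNA2 with 9.77 ± 1.10 (SD, n = 3) came below them there, and only BNA6 and BNA1 of these neighbours did not differ beyond their spread.

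**Figure D1:**
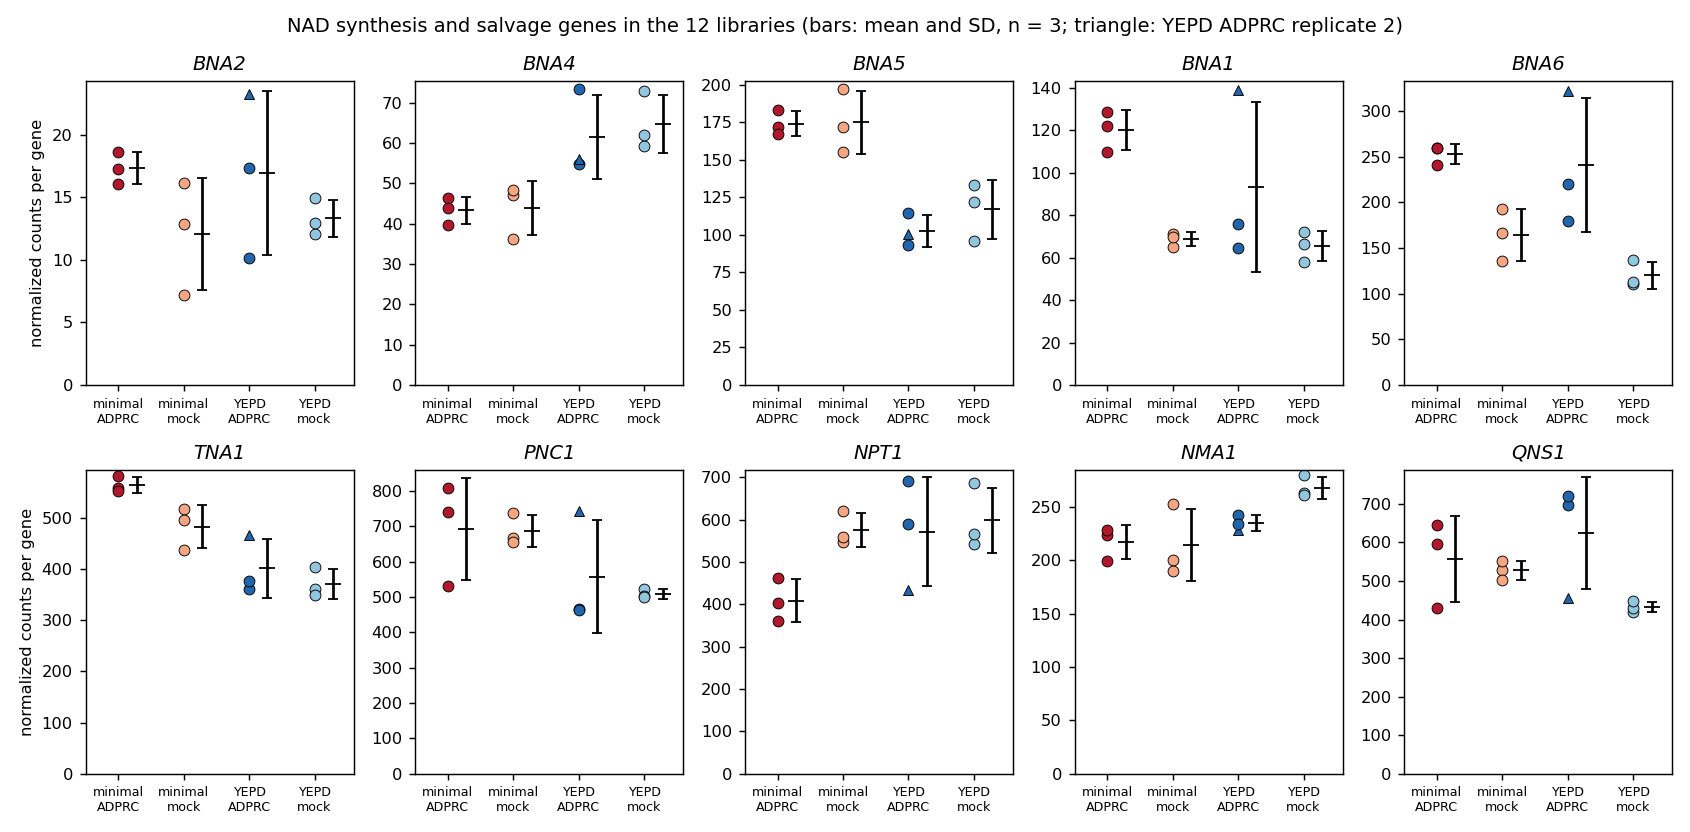
Normalized counts of the 10 NAD genes on axes from 0, 1 panel per gene, with 1 point per library and the mean and SD of each group as bars (n = 3), for minimal ADPRC, minimal mock, YEPD ADPRC and YEPD mock libraries, with YEPD ADPRC replicate 2 as a triangle. BNA1 and BNA6 sit higher in minimal ADPRC than in minimal mock, BNA5 and TNA1 sit higher in minimal medium than in YEPD, and the triangle lies above both other YEPD ADPRC libraries for 5 genes and below both for 3.

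Capture was asked first: which of these RNAs were more or less abundant after ADPRC than after mock treatment. In minimal medium BNA1 and BNA6, which act late in the de novo route, rose and NPT1, of the salvage route, fell, while the other 7 genes did not pass the test. In YEPD only BNA6 passed it. The share of all genes that passed was 28.8% in minimal medium, 780 of them higher and 803 lower, and 5.46% in YEPD, 270 higher and 30 lower. The 3 of 10 NAD genes in minimal medium and the 1 of 10 in YEPD are near those shares. With every library scaled to an equal total, 2488 genes passed as higher and 49 as lower in minimal medium, where that scaling moved the median of all genes to 0.44 on the log2 scale.

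BNA1, the hydroxyanthranilate dioxygenase that makes the precursor of quinolinic acid, had 122, 129 and 110.0 normalized counts in minimal ADPRC libraries, against 65.1, 71.3 and 69.8 in minimal mock libraries. The lowest ADPRC library lay well above the highest mock library. The change was 0.80 ± 0.22 on the log2 scale, a 1.74-fold rise (limma, adjusted p = 0.0185). The call ended without minimal mock replicate 1 or 2 (adjusted p = 0.0589 and 0.0508) and without minimal ADPRC replicate 1 or 2 (adjusted p = 0.0612 and 0.0719). It also ended once the length trend across genes described further on was removed (0.37, adjusted p = 0.121).

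In YEPD, BNA1 had 76.0 (unnumbered), 139 (replicate 2) and 64.5 (replicate 3) normalized counts in ADPRC libraries, against 72.0, 66.2 and 58.1 in mock libraries. The groups overlapped through replicate 3, with the unnumbered library just above the mock values and replicate 2 far above them. The change of 0.43 ± 0.22 did not pass the test (limma, adjusted p = 0.209). It was 0.10 ± 0.15 without replicate 2 (adjusted p = 0.774) and 0.65 without replicate 3, where it passed (adjusted p = 0.0439).

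BNA6, the quinolinate phosphoribosyltransferase that ends the de novo route, had 241, 259 and 259 normalized counts in minimal ADPRC libraries, against 136, 192 and 166 in minimal mock libraries. In YEPD it had 179.9 (unnumbered), 322 (replicate 2) and 221 (replicate 3) in ADPRC libraries, against 110.4, 113 and 137 in mock libraries. The groups did not overlap in either medium, and BNA6 was the only one of the 10 genes to pass the test in both. The rise was 0.63 ± 0.19 in minimal medium (1.55-fold, limma, adjusted p = 0.0248). The rise was 0.96 ± 0.19 in YEPD (1.95-fold, limma, adjusted p = 0.00810).

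Without YEPD ADPRC replicate 2 the BNA6 rise in YEPD was 0.73 ± 0.13 (adjusted p = 0.00055), and with the length trend removed 0.77 (adjusted p = 0.00594). The YEPD call ended without YEPD mock replicate 1 (adjusted p = 0.0560) and in a fit of the 6 YEPD libraries alone (adjusted p = 0.101). The minimal call was less stable: it ended with the length trend removed (0.37, adjusted p = 0.0935), without minimal mock replicate 1 or 3 (adjusted p = 0.0964 and 0.0576) and without minimal ADPRC replicate 1, 2 or 3 (adjusted p = 0.0612, 0.0798 and 0.0675).

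The early de novo genes showed no change that passed the test. BNA2, the tryptophan dioxygenase at the head of the route, had 18.6, 17.3 and 16.1 normalized counts in minimal ADPRC libraries, against 7.23, 12.8 and 16.1 in minimal mock libraries. In YEPD it had 17.3, 23.3 and 10.2 in ADPRC libraries, against 15.0, 12.04 and 12.9 in mock libraries. These values rest on few reads, 26 to 35 per library in minimal ADPRC, 4 to 9 in minimal mock, 9 to 32 in ADPRC libraries from YEPD and 10 to 16 in mock libraries from YEPD. The changes were 0.55 ± 0.32 in minimal medium (limma, adjusted p = 0.202) and 0.26 ± 0.32 in YEPD (adjusted p = 0.615). Without YEPD ADPRC replicate 2 the YEPD change was 0.0056 ± 0.35 (adjusted p = 0.997). The minimal change passed with a weight per library (0.65, adjusted p = 0.0416) and with libraries scaled to the same total (0.99, adjusted p = 0.0442). BNA2 also shares 17 bases with its annotated neighbour YJR079W.

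BNA4, the kynurenine monooxygenase, had 46.3, 39.7 and 43.9 normalized counts in minimal ADPRC libraries, against 36.2, 47.0 and 48.3 in minimal mock libraries. The YEPD values were 54.8, 56.0 and 73.5 in ADPRC libraries, against 73.0, 59.2 and 62.0 in mock libraries. The groups overlapped in both media, with changes of -0.0092 ± 0.17 (limma, adjusted p = 0.972) and -0.08 ± 0.17 (adjusted p = 0.786).

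BNA5, the kynureninase, had 172, 183 and 167 normalized counts in minimal ADPRC libraries, against 197, 155 and 172 in minimal mock libraries. Its YEPD values were 93.3, 100.4 and 114 in ADPRC libraries, against 122, 133 and 95.6 in mock libraries. Again the groups overlapped in both media, with changes of -0.00087 ± 0.14 (limma, adjusted p = 0.999) and -0.18 ± 0.14 (adjusted p = 0.418). A dubious frame on the other strand, YLR232W, overlaps BNA5 and had 5 reads over the 12 libraries, against 1866 for BNA5.

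NPT1, which joins nicotinic acid to a phosphoribosyl group, had 403, 359.9 and 462 normalized counts in minimal ADPRC libraries, against 546, 620.0 and 559 in minimal mock libraries. The highest ADPRC library lay below the lowest mock library. NPT1 fell by 0.50 ± 0.16 on the log2 scale (limma, adjusted p = 0.0317). The call was lost without any single minimal mock library (adjusted p = 0.0645, 0.106 and 0.0675 for replicates 1, 2 and 3) and without minimal ADPRC replicate 1 or 2 (adjusted p = 0.0890 and 0.125). It was lost too after quantile normalization (adjusted p = 0.0530), after scaling to the total outside ribosomal DNA (adjusted p = 0.0591) and without a trended, robust prior (adjusted p = 0.0512), and the change was -0.06 when libraries were scaled to the same total.

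In YEPD NPT1 had 690 (unnumbered), 434 (replicate 2) and 590.4 (replicate 3) normalized counts in ADPRC libraries, against 542, 565 and 686 in mock libraries. The groups overlapped, and replicate 2 was the lowest of the 6. The change was -0.08 ± 0.16 (limma, adjusted p = 0.761) and 0.10 without replicate 2 (adjusted p = 0.645).

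PNC1, the nicotinamidase, had 739, 809 and 530.0 normalized counts in minimal ADPRC libraries, against 667, 654 and 738 in minimal mock libraries. In YEPD PNC1 had 466 (unnumbered), 743 (replicate 2) and 464 (replicate 3) in ADPRC libraries, against 523, 503 and 498 in mock libraries. The ADPRC libraries scattered to both sides of the mock values in each medium. The changes were -0.0077 ± 0.18 (limma, adjusted p = 0.978) and 0.10 ± 0.18 (adjusted p = 0.753). Without YEPD ADPRC replicate 2 the YEPD change was -0.13 ± 0.12 (adjusted p = 0.618). With the length trend removed, PNC1, a short gene, was lower in minimal ADPRC by a change of -0.39 that passed the test (adjusted p = 0.0377).

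TNA1, the permease, had 559.6, 552 and 583 normalized counts in minimal ADPRC libraries, against 517, 496 and 437 in minimal mock libraries. These groups did not overlap, but the change of 0.23 ± 0.11 did not pass the test (limma, adjusted p = 0.142). It passed with a weight per library (0.21, adjusted p = 0.0185), in a fit of the 6 minimal libraries alone (adjusted p = 0.0218) and with libraries scaled to the same total (0.66, adjusted p = 0.00734). In YEPD it had 361 (unnumbered), 468 (replicate 2) and 378 (replicate 3) in ADPRC libraries, against 361, 349 and 404 in mock libraries, a change of 0.11 ± 0.11 (adjusted p = 0.557), or -0.0060 ± 0.087 without replicate 2 (adjusted p = 0.979). The dubious frame YGR259C, which overlaps TNA1 on the other strand, had 4 reads over the 12 libraries, against 6133 for TNA1.

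Of the shared steps, NMA1, the mononucleotide adenylyltransferase, had 224, 199 and 229 normalized counts in minimal ADPRC libraries, against 201, 252 and 189.8 in minimal mock libraries. In YEPD libraries the values were 242, 228 and 234 in ADPRC libraries, against 263, 279.9 and 261 in mock libraries. The YEPD groups did not overlap, with the ADPRC libraries lower. Neither change passed the test, at 0.03 ± 0.11 in minimal medium (limma, adjusted p = 0.868) and -0.19 ± 0.11 in YEPD (adjusted p = 0.291). How reads that match both NMA1 and NMA2 were counted is not given in the sources used here.

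QNS1, the glutamine-dependent NAD+ synthetase, had 595, 431 and 646 normalized counts in minimal ADPRC libraries, against 528, 503 and 553 in minimal mock libraries. In YEPD it had 697 (unnumbered), 457 (replicate 2) and 720.5 (replicate 3) in ADPRC libraries, against 420.0, 430.4 and 447 in mock libraries. The minimal groups overlapped and the YEPD groups did not, although replicate 2 lay only just above the highest mock library.

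The QNS1 change was 0.06 ± 0.17 in minimal medium (limma, adjusted p = 0.821) and 0.50 ± 0.17 in YEPD (adjusted p = 0.0981), neither of which passed. Without YEPD ADPRC replicate 2 the YEPD change was 0.71 ± 0.11 and passed (adjusted p = 0.000282). It also passed with the length trend removed (0.68, adjusted p = 0.00416), with a weight per library (0.69, adjusted p = 4.09e-05) and after quantile normalization (0.58, adjusted p = 0.0452).

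Separation of the libraries was counted too. In minimal medium 4 of 10 (BNA1, BNA6, NPT1 and TNA1) had ADPRC and mock libraries that did not overlap, against 54.8% of all genes. In YEPD 3 of 10 (BNA6, NMA1 and QNS1) did, against 32.2% of all genes. The median change of the 10 was 0.04 in minimal medium and 0.10 in YEPD, beside 0.01 and -0.00066 for all genes. Without YEPD ADPRC replicate 2 the YEPD changes of BNA4 (-0.02), BNA5 (-0.16) and NMA1 (-0.17) did not pass either.

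**Figure D2:**
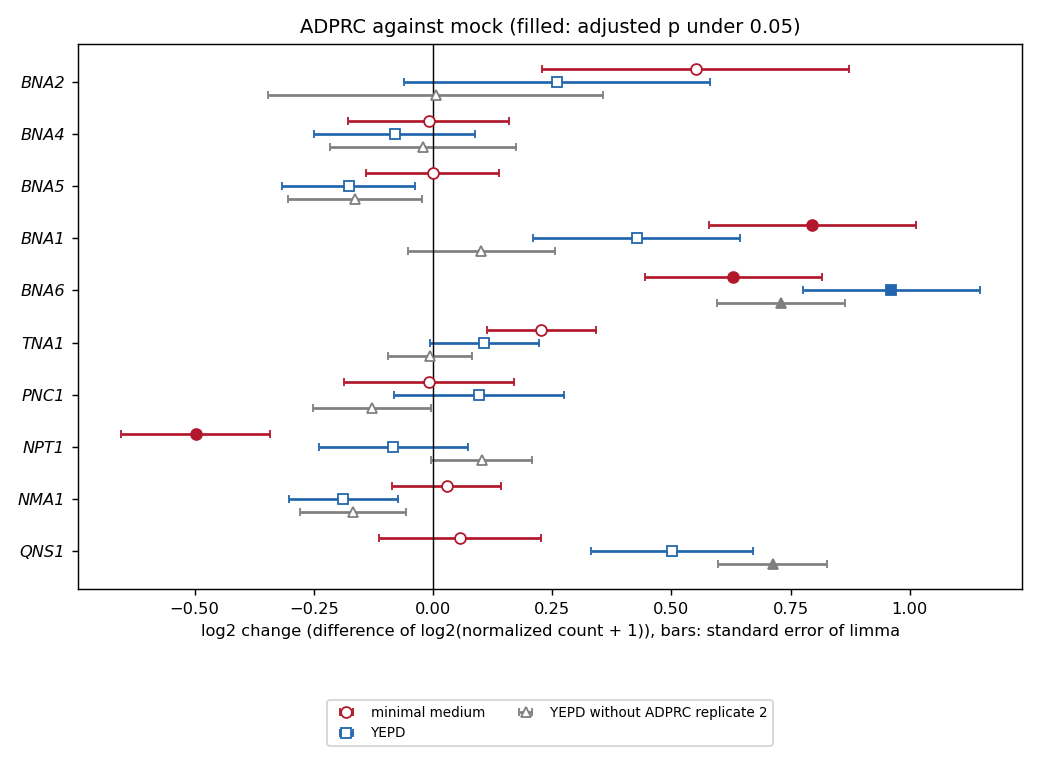
Log2 change of each NAD gene after ADPRC relative to mock treatment, with limma standard errors, in minimal medium and in YEPD; filled points passed the test at an adjusted p of 0.05 and open points did not. BNA1, BNA6 and NPT1 are filled in minimal medium and BNA6 alone in YEPD, and grey triangles give YEPD without ADPRC replicate 2, where QNS1 is filled too.

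Across all genes, the change after ADPRC was higher for shorter coding sequences. Over 5426 genes with a known length, log2 length and log2 change had a Pearson r of -0.635 in minimal medium and -0.647 in YEPD, as a description across genes of the same libraries, which are not independent. BNA1 (534 bases), PNC1 (651 bases) and BNA6 (888 bases) were the shortest of the 10, and QNS1 (2145 bases) the longest. The calls of BNA1 and BNA6 in minimal medium ended with the trend removed, while that of BNA6 in YEPD held (0.77, limma, adjusted p = 0.00594). PNC1 did not pass the test in minimal medium with the trend left in. The part of length in these changes was not tested. The change of QNS1 in YEPD was larger with the trend removed than with it (0.68 and 0.50). Among the 10 genes r was -0.435 in minimal medium and -0.226 in YEPD.

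**Figure D3:**
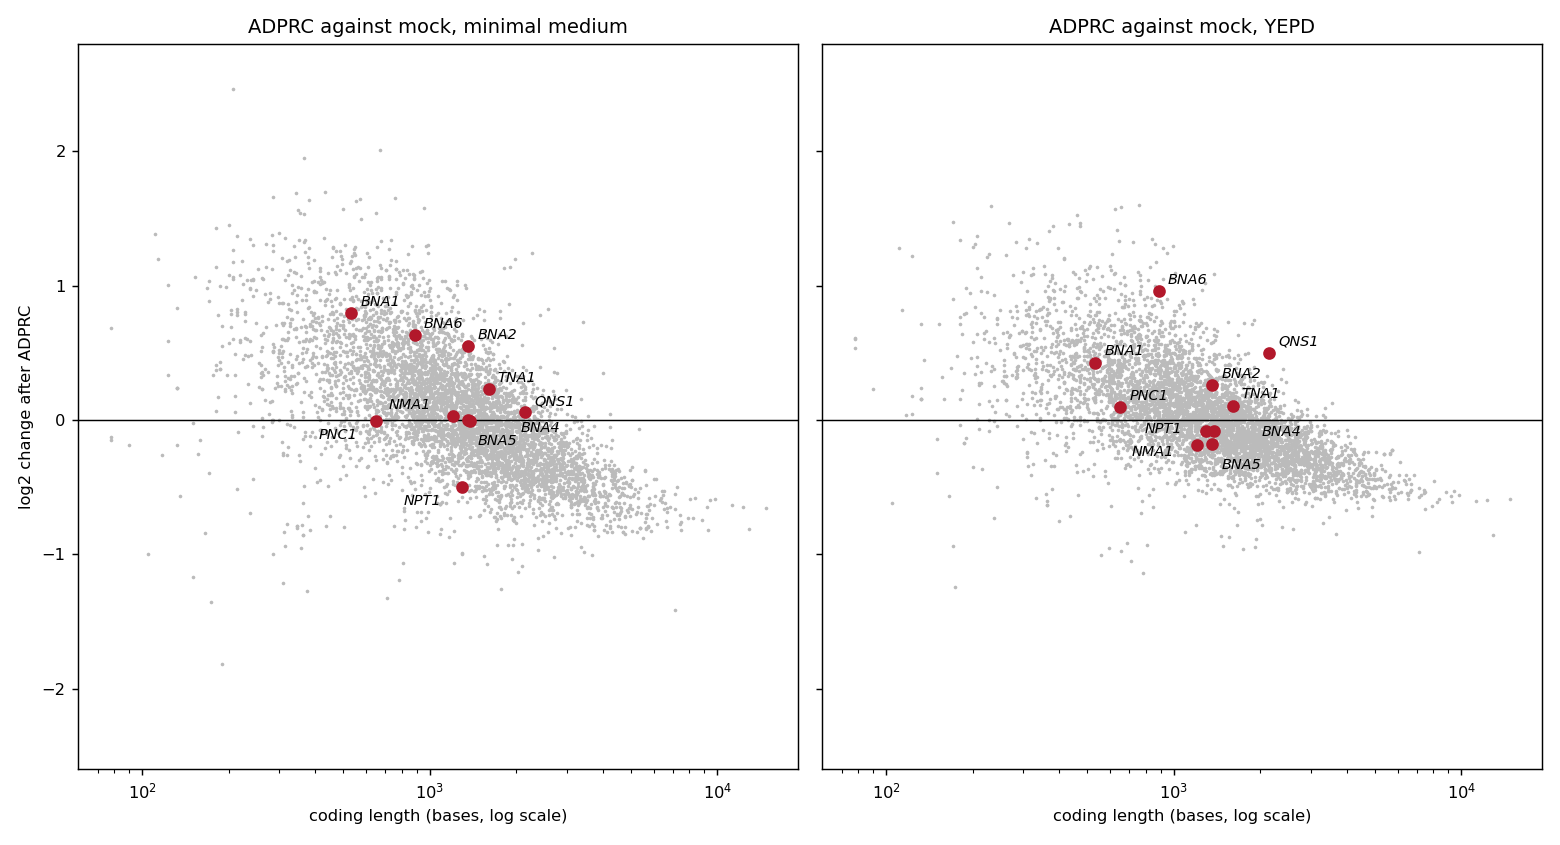
Log2 change after ADPRC relative to mock treatment against coding length on a log axis, in minimal medium (left) and YEPD (right); grey points are all tested genes with a known length and red points the 10 NAD genes. Short genes lie higher in both media (r of -0.635 and -0.647), and BNA1 and BNA6 are among the short genes with positive changes.

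Whether the ADPRC change differed between media was tested as an interaction, the change in minimal medium minus that in YEPD. None of the 10 genes passed, nor did any gene with limma (0%), edgeR or DESeq2, although 462, 330 and 236 genes had an unadjusted p under 0.05. The differences were 0.37 ± 0.31 for BNA1, -0.33 ± 0.26 for BNA6, -0.41 ± 0.22 for NPT1 and -0.44 ± 0.24 for QNS1 (limma, adjusted p = 0.830, 0.810, 0.661 and 0.667). The median over the 10 was 0.10, beside -0.0077 for all genes. These differences turned on YEPD ADPRC replicate 2: without it 1048 genes passed (19.1%), 492 with a positive and 556 with a negative difference, and so did BNA1 (0.69 ± 0.21, adjusted p = 0.0193), NPT1 (-0.60 ± 0.14, adjusted p = 0.00450) and QNS1 (-0.66 ± 0.15, adjusted p = 0.00545). With a weight per library, which down-weights a library that scatters, 1103 of all 5490 genes passed. The same 3 NAD genes were among them, at 0.65 (adjusted p = 0.0150), -0.64 (adjusted p = 0.00150) and -0.54 (adjusted p = 0.00789). BNA6 did not pass under either.

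Growth medium was compared next, in mock libraries and again in ADPRC libraries. The pair of comparisons shares no library, but it shares the model's estimate of spread and the tie of medium to library preparation. Nothing in the labels says that mock and ADPRC RNA came from separate cultures, so a like result in both need not be an independent repeat. BNA5 and TNA1 rose in minimal medium in both comparisons, and BNA4 fell in both. NMA1 fell in mock libraries and NPT1 in ADPRC libraries. In mock libraries 4 of 10 NAD genes passed the test, against 29.7% of all genes (400 higher and 1228 lower; 651 and 494 with TMM scaling). In ADPRC libraries 4 of 10 passed, against 32.8% of all genes (387 higher and 1411 lower; 636 and 453 with TMM scaling). The median of all genes was -0.20 and -0.19 on the log2 scale here, and 1.03 and 1.28 when libraries were scaled to the same total. With the last scaling 5004 of all 5490 genes passed as higher in mock libraries and 5192 in ADPRC libraries. All 10 NAD genes were higher in minimal medium in both comparisons with that scaling, so that every fall named here changes sign with it. Ribosomal DNA frames, with their unlike shares of reads in the media, count towards that total. With those frames left out of the total, the median of all genes was -0.16 in mock and -0.15 in ADPRC libraries. In mock libraries BNA4 was then -0.52 and NMA1 -0.30, and neither passed (limma, adjusted p = 0.0836 and 0.1885).

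BNA5 showed the firmest difference between media. Its 167 to 183 normalized counts in minimal ADPRC libraries stood against 93.3 to 114 in YEPD ADPRC libraries, and its 155 to 197 in minimal mock libraries against 95.6 to 133 in YEPD mock libraries. No minimal library overlapped a YEPD library of the same treatment. The rise was 0.76 ± 0.14 in ADPRC libraries (1.69-fold, limma, adjusted p = 0.00117) and 0.58 ± 0.14 in mock libraries (1.498-fold, adjusted p = 0.00716). It passed the test under all 20 alternatives in each comparison, and was 0.75 in ADPRC libraries without YEPD replicate 2.

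TNA1 had 552 to 583 normalized counts in minimal ADPRC libraries, against 361 to 468 in YEPD ADPRC libraries, and 437 to 517 in minimal mock libraries, against 349 to 404 in YEPD mock libraries. The groups did not overlap in either comparison. The rise was 0.50 ± 0.11 in ADPRC libraries (1.41-fold, limma, adjusted p = 0.00523) and 0.38 ± 0.11 in mock libraries (1.30-fold, adjusted p = 0.0247). Without YEPD ADPRC replicate 2 the rise in ADPRC libraries was 0.61 ± 0.087, and with the replicate number as a block it did not pass (0.42, adjusted p = 0.0671). In mock libraries the call ended without minimal mock replicate 1 or 2 (adjusted p = 0.0917 and 0.0723) and without YEPD mock replicate 1 or 2 (adjusted p = 0.0802 and 0.0950).

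BNA4 moved the other way from BNA5, the gene of the next step in the route. It had 39.7 to 46.3 normalized counts in minimal ADPRC libraries, against 54.8 to 73.5 in YEPD ADPRC libraries, and 36.2 to 48.3 in minimal mock libraries, against 59.2 to 73.0 in YEPD mock libraries. Neither pair of groups overlapped. BNA4 fell by 0.49 ± 0.17 in ADPRC libraries (limma, adjusted p = 0.0416) and by 0.56 ± 0.17 in mock libraries (adjusted p = 0.0255).

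The BNA4 calls were fragile. They ended with TMM scaling (adjusted p = 0.245 in ADPRC and 0.144 in mock libraries) and turned to 0.98 and 0.67 when libraries were scaled to the same total. In mock libraries the call also ended without minimal mock replicate 1 (adjusted p = 0.0977) and YEPD mock replicate 1 (adjusted p = 0.103). In ADPRC libraries it ended without minimal ADPRC replicate 1, 2 or 3 (adjusted p = 0.0730, 0.134 and 0.0846) and without the unnumbered or replicate 3 YEPD library (adjusted p = 0.0583 and 0.183), but not without YEPD replicate 2 (-0.55, adjusted p = 0.0191).

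Since scaling cancels within a library, the ratio of BNA5 to BNA4 in each library does not turn on it. The ratio was 3.71, 4.61 and 3.80 in minimal ADPRC libraries and 5.45, 3.30 and 3.56 in minimal mock libraries, against 1.70, 1.79 and 1.55 in ADPRC libraries and 1.67, 2.25 and 1.54 in mock libraries from YEPD. Every minimal library lay above every YEPD library, replicate 2 included. The pair was chosen after these values were seen, and the ratio carries no test.

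NMA1 fell by 0.33 ± 0.11 in mock libraries (limma, adjusted p = 0.0438), with 214 ± 33.4 normalized counts in minimal and 268 ± 10.5 in YEPD libraries (SD, n = 3). In ADPRC libraries its 217 ± 15.9 in minimal and 235 ± 7.08 in YEPD (SD, n = 3) did not differ beyond the test (-0.11 ± 0.11, adjusted p = 0.466). Relative to the median of all genes the mock change was only -0.13, and it did not pass with TMM scaling (adjusted p = 0.411). It was also lost without minimal mock replicate 1 or 3 (adjusted p = 0.129 and 0.164) and without any 1 of the YEPD mock libraries (adjusted p = 0.0922, 0.135 and 0.0802 for replicates 1, 2 and 3), and was 0.91 when libraries were scaled to the same total.

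NPT1 in ADPRC libraries had 408 ± 51.3 normalized counts in minimal and 571 ± 129 in YEPD libraries (SD, n = 3). The groups overlapped through YEPD replicate 2, and NPT1 fell by 0.47 ± 0.16 (limma, adjusted p = 0.0361). The call ended with TMM scaling (adjusted p = 0.242), without minimal ADPRC replicate 1 or 2 (adjusted p = 0.0942 and 0.143) and without the unnumbered or replicate 3 YEPD library (adjusted p = 0.168 and 0.102). Without YEPD replicate 2 it held, at -0.65 ± 0.11, and the change was 1.02 when libraries were scaled to the same total. In mock libraries NPT1 had 575 ± 39.6 in minimal and 598 ± 77.1 in YEPD libraries (SD, n = 3), a change of -0.05 ± 0.16 (adjusted p = 0.827).

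The remaining genes did not pass the test for medium. PNC1 had 654 to 738 normalized counts in minimal mock libraries, against 498 to 523 in YEPD mock libraries, and QNS1 503 to 553 against 420.0 to 447. Both pairs of groups were separate, with changes of 0.43 ± 0.18 (limma, adjusted p = 0.0830) and 0.29 ± 0.17 (adjusted p = 0.213). BNA6 changed by 0.44 ± 0.19 in mock libraries (adjusted p = 0.0852), and with TMM scaling both BNA6 (0.63, adjusted p = 0.0275) and PNC1 (0.62, adjusted p = 0.0257) passed. BNA1 changed by 0.07 ± 0.22 (adjusted p = 0.817) and BNA2 by -0.19 ± 0.32 (adjusted p = 0.672).

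In ADPRC libraries the medium changes of BNA1 (0.44 ± 0.22, limma, adjusted p = 0.133), BNA6 (0.11 ± 0.19, adjusted p = 0.662), PNC1 (0.33 ± 0.18, adjusted p = 0.175) and QNS1 (-0.16 ± 0.17, adjusted p = 0.503) depended on YEPD replicate 2. Without it all of them passed, at 0.77 (adjusted p = 0.000129), 0.34 (adjusted p = 0.0311), 0.55 (adjusted p = 0.000926) and -0.37 (adjusted p = 0.00956), so that 8 of 10 genes were called, 5 higher and 3 lower, against 57.8% of all genes in that setting. BNA2 changed by 0.10 ± 0.32 (adjusted p = 0.831) with all libraries.

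In mock libraries 6 of 10 NAD genes had groups that did not overlap, against 54.7% of all genes, and in ADPRC libraries 3 of 10, against 40.2%. The median change of the 10 was 0.18 in mock and 0.11 in ADPRC libraries, beside -0.20 and -0.19 for all genes.

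**Figure D4:**
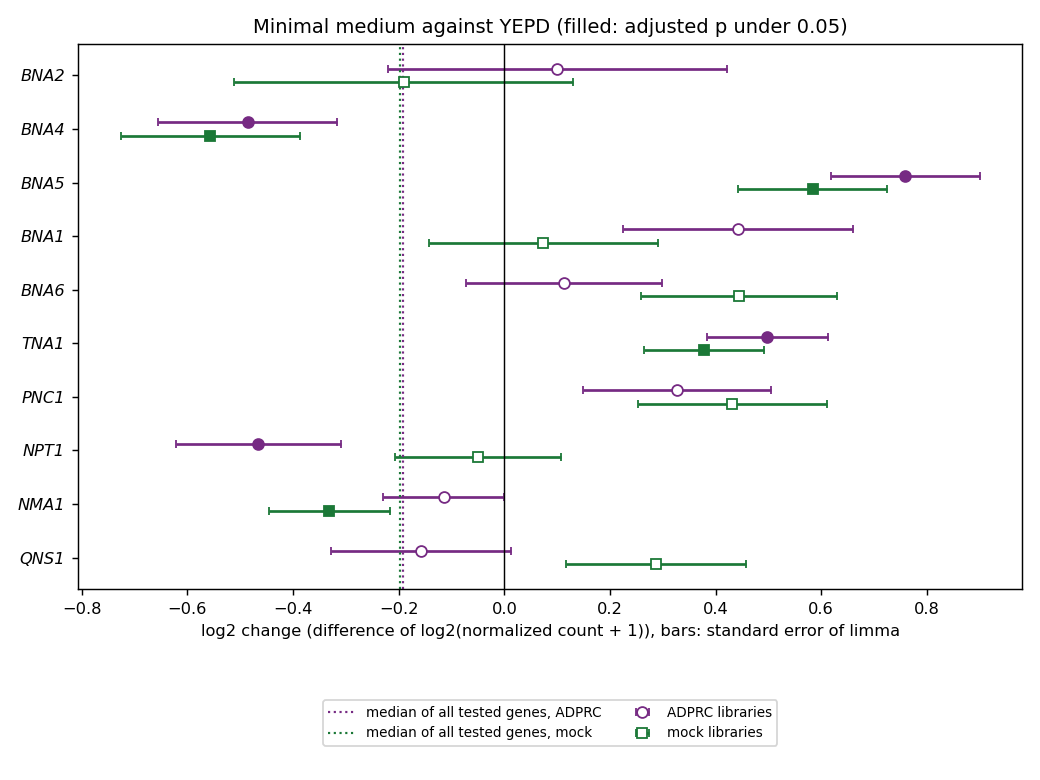
Log2 change of each NAD gene in minimal medium relative to YEPD, with limma standard errors, in ADPRC libraries and in mock libraries; filled points passed the test at an adjusted p of 0.05, and dotted lines mark the median of all genes. BNA5 and TNA1 lie on the right in both and BNA4 on the left in both, with NPT1 (ADPRC) and NMA1 (mock) also filled on the left.

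YEPD ADPRC replicate 2 differed from the other YEPD ADPRC libraries in most of these genes. It was above both others for BNA1, BNA2, BNA6, PNC1 and TNA1 and below both for NPT1, NMA1 and QNS1. Relative to the mean of the others it was 1.98-fold for BNA1, 1.61-fold for BNA6, 1.60-fold for PNC1, 0.678-fold for NPT1 and 0.644-fold for QNS1. Whether the library differs in its RNA or in its handling was not tested.

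Ratios within a library set genes of the routes against each other without regard to scaling. The summed level per kb of the 5 de novo genes over that of NPT1 and PNC1 was 0.465, 0.466 and 0.566 in minimal ADPRC libraries, against 0.311, 0.342 and 0.314 in minimal mock libraries. In YEPD it was 0.373 (unnumbered), 0.511 (replicate 2) and 0.439 (replicate 3) in ADPRC libraries, against 0.337, 0.332 and 0.299 in mock libraries. All 6 ADPRC libraries lay above all 6 mock libraries. The sum includes BNA1 and BNA6, called higher in minimal medium, and the denominator includes NPT1, called lower there. BNA2 (0.55), BNA4 (-0.0092) and BNA5 (-0.00087) did not pass there, so the ratio does not show a shift of the whole de novo route. The short genes BNA1 and BNA6 are in the numerator and the short gene PNC1 is in the denominator, and the part of length in the ratio was not tested.

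The ratio of BNA6 to NPT1, the phosphoribosyltransferases at which the routes converge, was 0.597, 0.721 and 0.562 in minimal ADPRC libraries, against 0.248, 0.310 and 0.298 in minimal mock libraries. In YEPD it was 0.261 (unnumbered), 0.742 (replicate 2) and 0.374 (replicate 3) in ADPRC libraries, against 0.203, 0.201 and 0.200 in mock libraries. The ADPRC libraries lay above the mock libraries in both media, by a small margin in the unnumbered YEPD library. These ratios were chosen after values were seen and carry no test.

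**Figure D5:**
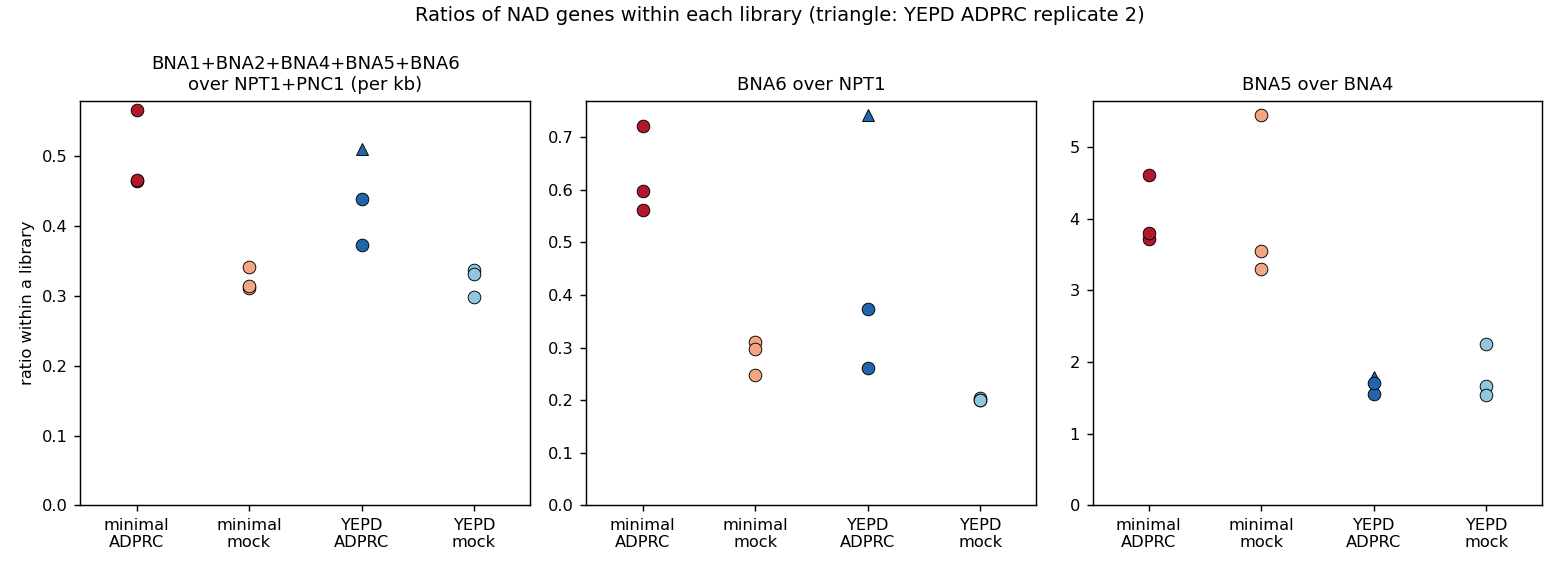
Ratios of NAD genes within each of the 12 libraries, 1 point per library, with YEPD ADPRC replicate 2 as a triangle: the 5 de novo genes over NPT1 and PNC1 per kb, BNA6 over NPT1, and BNA5 over BNA4. In each medium the first pair of ratios is higher after ADPRC than after mock treatment, and BNA5 over BNA4 is above 3 in every minimal library and at most 2.25 in YEPD.

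Other genes of NAD metabolism were read beside these, against the 28.8% and 5.46% of all genes that passed after ADPRC in minimal medium and in YEPD. Of 18 further NAD genes, 6 rose and 0 fell after ADPRC in minimal medium, and 0 passed in YEPD, which is near the share of all genes in minimal medium. Those that rose most in minimal medium were POS5, the mitochondrial NADH kinase (0.90, limma, adjusted p = 0.00657), NRK1, the nicotinamide riboside kinase (0.73, adjusted p = 0.0185), PNP1, a purine nucleoside phosphorylase (0.69, adjusted p = 0.0157), and NPY1, an NADH pyrophosphatase (0.50, adjusted p = 0.0136). With the length trend removed, 3 of the 18 were higher and 1 lower, against 389 and 424 of all 5426 genes in that setting. The median change of the 18 was 0.11 in each medium.

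Of 10 NAD+ consumers and regulators, 0 rose and 3 fell after ADPRC in minimal medium, and 0 passed in YEPD. The shares of all genes that passed were 28.8% (780 higher and 803 lower) and 5.46%. With libraries scaled to the same total, however, 2 rose and 0 fell in minimal medium, against 2488 and 49 of all 5490 genes. Those that fell were SUM1, a repressor of the BNA genes (-0.80, limma, adjusted p = 0.0116), BAS1, a transcription factor of purine synthesis genes (-0.69, adjusted p = 0.00768), and HST2, a sirtuin (-0.38, adjusted p = 0.0278). These values are from the main fit, which leaves in the length trend across genes.

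Of 11 genes of tryptophan synthesis and uptake, which supply the de novo route, 2 rose and 3 fell after ADPRC in minimal medium. Among all 5490 genes 28.8% passed there, 780 higher and 803 lower. With libraries scaled to the same total 5 of the 11 rose, against 2488 of all 5490 genes. ARO4 (0.69, limma, adjusted p = 0.0453) and TRP1 (0.65, adjusted p = 0.0203) rose, and ARO1 (-0.73, adjusted p = 0.00550) and the permease TAT1 (-0.42, adjusted p = 0.0149) were among those that fell. In YEPD TRP1 alone passed, with a rise of 1.00 ± 0.18 (adjusted p = 0.00577), against 5.46% of all genes. The values of these genes, too, are from the main fit, with the length trend left in.

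Between media the same lists were read against the 29.7% of all genes that passed in mock libraries and the 32.8% in ADPRC libraries. With libraries scaled to the same total, 5004 of all 5490 genes passed as higher in mock libraries and 5192 in ADPRC libraries. In mock libraries 0 of the 18 NAD genes rose and 2 fell in minimal medium, POS5 (-0.62, limma, adjusted p = 0.0227) among them, and in ADPRC libraries 0 rose and 3 fell, namely SDT1 (-0.84, adjusted p = 0.00118), YIA6 (-0.78, adjusted p = 0.0108) and FUN26 (-0.43, adjusted p = 0.0123), but all 18 were higher in both with libraries scaled to the same total. Of the 10 consumers and regulators, 0 passed in mock libraries and 4 fell in ADPRC libraries, among them BAS1 (-0.55, adjusted p = 0.0123), the sirtuin HST1 (-0.43, adjusted p = 0.0105) and HST2 (-0.41, adjusted p = 0.0172), but all 10 were higher in ADPRC libraries scaled to the same total. Of the 11 tryptophan genes, 2 rose in mock libraries, TRP1 (0.63) and TRP4 (0.47), and 1 fell, TRP3 (-0.35), and in ADPRC libraries TRP4 rose (0.60, adjusted p = 0.0122) and TAT1 fell (-0.45, adjusted p = 0.00607), but all 11 were higher in both with libraries scaled to the same total.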

How the data were processed

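RNA captured after ADPRC or mock treatment was measured in 12 libraries, 4 groups of 3, grouped by the labels. The deposited table holds a signal per gene and library, normalized by the authors per the file headers, which do not say how. On checking, each value in the 12 columns was a whole multiple of 1 step (tolerance 0.01 reads), as read counts divided by 1 factor for each library would be. That step was 1.00 in YEPD mock replicate 2, which was left out of count tools, so that edgeR and DESeq2 ran on 11 libraries. The submitters' processing notes name FastQC, Trimmomatic, Bowtie, HTSeq and DESeq. Versions, build, annotation and strand use were not given in the sources used here. There are 6607 distinct identifiers, 130 of them at 0 throughout, and 1 identifier appears more than once. RefSeq R64 gave names and coding lengths for 5919 identifiers and none for 688.

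The model, of log2(value + 1) on 4 group means, used limma 3.58.1 (R 4.3.3) with a trended, robust prior and the 5490 genes whose mean was at least 10. P-values are two-sided, adjusted over all genes within each contrast (Benjamini-Hochberg, 0.05); errors beside log2 changes are limma's standard errors. A gene at 0 reads could hold up to 3 reads. That limit of 3 reads covers counting error only. All 10 genes are named whatever their result; of each other list, up to 4 genes with the largest change among those that passed with groups that did not overlap. The genes and lists were chosen with earlier results of these data known. Alternatives were other scalings (TMM, quantile, same total with and without ribosomal DNA frames), a pseudocount of 8, no filter or a mean of at least 50, removal of the length trend, library weights, an ordinary prior, only the groups compared, edgeR 4.0.16, DESeq2 1.42.0, a replicate block and leaving out each library. The main fit was also run on simulated data, drawn from the minimal mock means with a fixed dispersion. That simulation held no difference between media, no length trend and no outlying library, so it does not bear on these features. Growth medium cannot be told apart from a change in strand use or library preparation.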

Additional observations from a re-analysis of the deposited data

How the results depend on the processing

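Over 1043 recomputed changes of the 10 genes, 837 kept direction and side of the threshold, 49 newly passed with the same sign, 74 no longer passed and 83 changed sign. Of the sign changes, 75 were of changes that passed in neither setting, and 8 passed after the change. Those 8 came from scaling to the same total, for minimal medium against YEPD: in mock libraries BNA2 (0.96), BNA4 (0.67), NPT1 (1.19) and NMA1 (0.91), and in ADPRC libraries BNA4 (0.98), NPT1 (1.02), NMA1 (1.37) and QNS1 (1.33). Each count of NAD genes below is followed in parentheses by the number of all 5490 genes called in that setting (5426 with the length trend removed). After ADPRC in minimal medium 3 NAD genes were called (1583). That number was 6 with the same total (2537), 5 with library weights (2888) and 0 to 2 with a library left out (548 to 995). In YEPD it was 1 (300). It was 2 with the same total (309), quantile normalization (317), length trend removed (173) or library weights (676). It was 0 with only the groups compared (46), and 0 to 2 with a library left out (107 to 1109). For the interaction it was 0 (0). It was 3 with library weights (1103), and 0 to 3 with a library left out (0 to 1048). For medium in mock libraries it was 4 (1628). It was 10 with the same total (5166) and 7 with library weights (2725) or only the groups compared (2634). It was 2 with edgeR (752) or DESeq2 (745), and 1 to 3 with a library left out (1081 to 1251). For medium in ADPRC libraries it was 4 (1798). It was 10 with the same total (5330) and 8 with library weights (3516). It was 2 with TMM (1089), quantile normalization (1215), the total without ribosomal DNA frames (897) or length trend removed (1247). It was also 2 with only the groups compared (947), edgeR (1016) or DESeq2 (988). It was 1 with the replicate block (876), and 2 to 8 with a library left out (1060 to 3173). The cause of these differences between settings was not tested. Deviations of same-numbered libraries from their group means had correlations from -0.146 to 0.317 over 15 pairs. Between YEPD ADPRC and minimal ADPRC libraries they were 0.317 for replicate 2 and 0.216 for replicate 3, and in every other pair at most 0.013. What a shared number stands for was not tested, so the replicate block, on the 11 numbered libraries, rests on that number only.

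Over all genes, counts moved by over 1.5 times in these settings: after ADPRC in minimal medium (1583) 2537 with the same total, 1030 with the total without ribosomal DNA frames, 813 with the length trend removed, 2888 with library weights and 2550 with only the groups compared; after ADPRC in YEPD (300) 186, 173, 676 and 46 in the last 4 of these, 134 with edgeR and 150 with the replicate block. For the interaction (0) they were 1 with the length trend removed, 3 with an ordinary prior and 1103 with library weights. For medium in mock libraries (1628) they were 5166 with the same total, 1019 with the total without ribosomal DNA frames, 2725 with library weights, 2634 with only the groups compared, 752 with edgeR and 745 with DESeq2. For medium in ADPRC libraries (1798) they were 5330, 897, 3516, 947, 1016 and 988 in those settings, 1089 with TMM and 876 with the replicate block. With a library left out, counts spanned 548 to 995 and 107 to 1109 for ADPRC in minimal medium and YEPD, 0 to 1048 for the interaction, and 1081 to 1251 and 1060 to 3173 for medium in mock and ADPRC libraries. Depth limited BNA2 most, with 4 to 35 reads per library; it has no value where a mean of at least 50 was required, and DESeq2 gave no adjusted p in some contrasts.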
